A study of Homo sapiens with 19 samples.

Results

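Mitochondrially encoded mRNAs are the transcripts of the protein-coding genes carried by the mitochondrial genome (mtDNA). The 10 examined here, MT-ND1, MT-ND2, MT-ND4, MT-ND5, MT-CYB, MT-CO1, MT-CO2, MT-CO3, MT-ATP6 and MT-ATP8, were taken by gene symbol from 2 tables of normalized counts that each list 34825 symbols. All 10 were found in both tables, and all 10 passed the filter on low values. The libraries were made from mRNA of HepG2, a human liver cancer cell line, 72 h after transfection of 50 nM siRNA. In the first experiment (the INO80 experiment) NTG, a control siRNA, was set beside siINO80#1 and siINO80#2, which both target INO80, with 3 libraries per group and no added compound named in the labels. INO80 is the ATPase of the INO80 chromatin remodeling complex. In the second (the drug experiment) cells received 1 µM EPZ-6438, an inhibitor of the methylation of histone H3 at lysine 27, or DMSO, starting 3 days before transfection with NTG or with an siRNA against MCRS1, another subunit of the complex. The NTG cells gave 2 libraries in DMSO and 3 in EPZ-6438, and the siMCRS1 cells gave 3 in DMSO and 2 in EPZ-6438. The label of the DMSO groups also gives 1 µM. The sample titles name siMCRS1 without a number, so no second siRNA against MCRS1 stands beside it for comparison. The labels do not say that libraries of a group came from separate cultures, and p-values then measure only the spread between these libraries.

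Both strands of the circular mitochondrial genome are transcribed as long precursors by the mitochondrial RNA polymerase POLRMT with the factors TFAM and TFB2M. Most mRNAs are released when the tRNAs that lie between them are cut out, and poly(A) tails are then added to most of them, which brings them into libraries made from polyadenylated RNA. The proteins they encode are hydrophobic core subunits of respiratory chain complexes I, III and IV and of the ATP synthase, which join many subunits encoded in the nucleus. Liver cells hold many mitochondria, and in RNA-seq of liver lines these transcripts are known to be among the most abundant.

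The 10 genes lie on the plus strand of chromosome MT in RefSeq GRCh38.p14, and the same positions stand in GENCODE v44. From 5′ to 3′ they are MT-ND1 (3307-4262), MT-ND2 (4470-5511), MT-CO1 (5904-7445), MT-CO2 (7586-8269), MT-ATP8 (8366-8572), MT-ATP6 (8527-9207), MT-CO3 (9207-9990), MT-ND4 (10760-12137), MT-ND5 (12337-14148) and MT-CYB (14747-15887). None has an intron. MT-ATP8 and MT-ATP6 share 46 bases (8527-8572), which are 22.2% of the 207 bases of MT-ATP8 and 6.76% of the 681 bases of MT-ATP6, and MT-ATP6 shares 1 base with MT-CO3. Reads in the shared bases cannot be told apart by sequence. The GENCODE transcript sequences below show the start of MT-ATP6 and the end of MT-ATP8, which overlap, with the start and stop codons in capitals. They also show the start codon of MT-ND1, on which most of the tests below turn, and its end, where the encoded stop is cut short to the capital bases TA and is completed by the poly(A) tail. The start of MT-CO1, the most abundant of the 10, stands last.
MT-ATP6 bases 1 to 30 (MT 8527-8556): ATGaacgaaaatctgttcgcttcattcatt
MT-ATP8 bases 178 to 207 (MT 8543-8572): tcgcttcattcattgcccccacaatccTAG
MT-ND1 bases 1 to 30 (MT 3307-3336): ATAcccatggccaacctcctactcctcatt
MT-ND1 bases 927 to 956 (MT 4233-4262): tacaatctccagcattccccctcaaaccTA
MT-CO1 bases 1 to 30 (MT 5904-5933): ATGttcgccgaccgttgactattctctaca

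Stretches of mtDNA copied into the nuclear genome in evolution hold nearly the same sequences, and how a read that matches both was assigned is not given in the sources used here. The share of 31-base words of each mRNA that also occur in another GENCODE transcript was 66.7% for MT-CO1, 63.8% for MT-ATP6, 56.9% for MT-ND2, 50.5% for MT-CO2, 45.0% for MT-CO3, 44.6% for MT-ATP8, 28.2% for MT-ND1, 21.2% for MT-ND4, 15.1% for MT-ND5 and 4.95% for MT-CYB. These shares do not give the reads assigned to the copies. In NTG replicate A, MTATP6P1 was at 21967 normalized counts beside MT-ATP6 at 113604, whereas MTCO1P12 was at 636 beside MT-CO1 at 383962. MTATP6P1 on chromosome 1 (633696-634376) differs from MT-ATP6 at 10 of 681 bases. The window below shows 2 of these differences in capitals, counted from the first base of each gene.
MT-ATP6 bases 122 to 151: gactaatCaccacccaacaatgactaatcA
MTATP6P1 bases 122 to 151: gactaatTaccacccaacaatgactaatcC

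The INO80 libraries held 17093574 to 25369547 reads and the drug libraries 26038505 to 47397233, recovered from the normalized counts as described in the methods. INO80 mRNA was at 1278, 1338 and 1175 normalized counts in the NTG libraries A, B and C, at 576, 638 and 609 with siINO80#1 and at 440, 456 and 483 with siINO80#2. MCRS1 mRNA was at 84 to 140 normalized counts in the 5 siMCRS1 libraries and at 1201 to 1577 in the 5 NTG libraries of the drug experiment. All 7 liver markers were present in all 19 libraries, from TTR at 1879 normalized counts or more to APOB at 261092 or more. Of 7 markers of leukocytes, endothelium and fibroblasts, CD3E was at 0 in 17 of 19 libraries and VWF in 1. PTPRC, CD14 and COL1A2 were at 35.9 normalized counts or less in every library, and PECAM1 (138 to 326) and COL1A1 (46.7 to 772) were higher.

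The 10 mRNAs together took 5.63% to 16.8% of the reads of a library, and 1 library stood apart. In NTG they took 7.77% (A), 7.83% (B) and 7.56% (C), in siINO80#1 7.90%, 7.76% and 8.02%, and in siINO80#2 8.74%, 7.68% and 16.8%. The siINO80#2 replicate C library thus lay far above the rest, whereas the other 8 libraries of the experiment lay within 7.56% to 8.74%. The group means were 7.72% ± 0.144 (SD, n = 3) for NTG, 7.89% ± 0.135 (SD, n = 3) for siINO80#1 and 11.1% ± 4.99 (SD, n = 3) for siINO80#2, which became 8.21% ± 0.746 (SD, n = 2) without replicate C. In the drug experiment DMSO with NTG gave 6.002% (library 1) and 6.58% (library 3), and DMSO with siMCRS1 gave 6.41%, 6.03% and 6.52%. EPZ-6438 with NTG gave 5.99%, 8.28% and 7.58%, and EPZ-6438 with siMCRS1 gave 6.32% (A) and 5.63% (B). Library 2 of EPZ-6438 with NTG was the highest of these 10. The 95% Wilson intervals were at most 0.0303 percentage points wide and cover counting error only. These are levels in the RNA of whole cultures, in which fewer cells and less RNA per cell cannot be told apart.

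**Figure D1:**
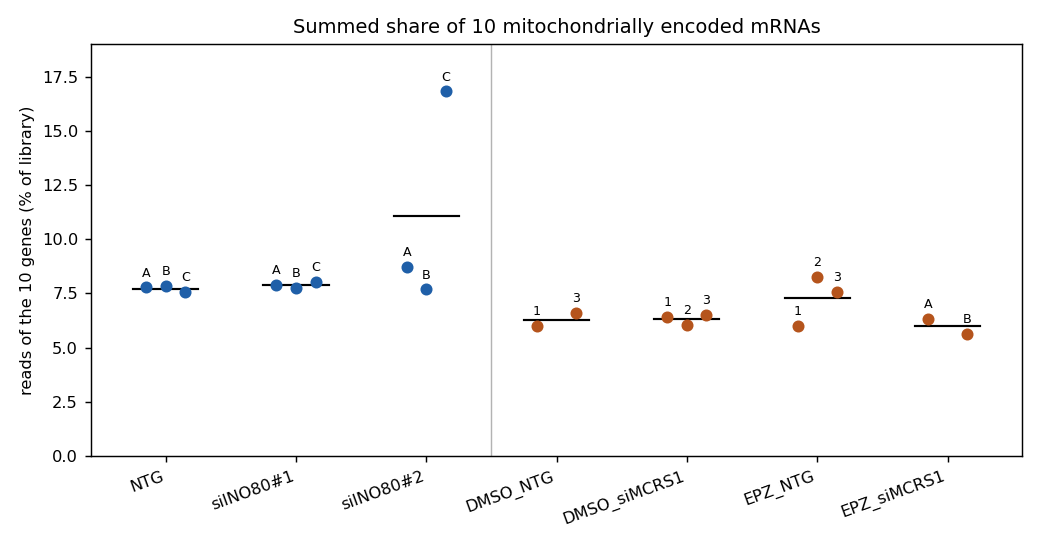
Share of a library's reads taken by the 10 mRNAs (y axis, percent), by group (x axis), for the 9 libraries of the INO80 experiment and the 10 of the drug experiment; each point is 1 library and each line the mean of its group. The siINO80#2 replicate C library sits at 16.8%, and the other 18 libraries lie between 5.63% and 8.74%.

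MT-CO1, the catalytic core of cytochrome c oxidase, had the highest level per length, and the complex IV mRNAs and MT-ATP6 stood above those of complexes I and III other than MT-ND4. As reads per kilobase of gene, normalized to library depth (RPKM), the medians over the 9 libraries of the INO80 experiment were 13388 for MT-CO1, 11465 for MT-ND4, 10861 for MT-CO2, 9973 for MT-CO3, 8567 for MT-ATP6, 5520 for MT-ND2, 5382 for MT-ND1, 4347 for MT-CYB, 3152 for MT-ND5 and 524 for MT-ATP8. In 7 of the 9 steps of this order the higher gene was above the next in all 9 libraries. The exceptions were MT-ND4 over MT-CO2 and MT-ND2 over MT-ND1, which held in 6 of 9 libraries each, so these neighbors were not separated. In the drug experiment the 5 highest were again MT-CO1 (9980), MT-CO3 (8762), MT-ND4 (8221), MT-CO2 (8073) and MT-ATP6 (7889), with each above the next in 9, 7, 7 and 8 of 10 libraries down to MT-ATP6. Below them MT-ATP6, MT-ND2 (5539), MT-ND1 (4770), MT-CYB (3614), MT-ND5 (2320) and MT-ATP8 (721) kept this order in 10 of 10. MT-ATP8, a short subunit of the ATP synthase whose gene runs into that of MT-ATP6, was the lowest per length in all 19 libraries and took a mean of 0.137% of the reads of the 10 mRNAs in the first experiment and 0.232% in the second, against 26.2% and 24.6% for MT-CO1. How reads of the joint MT-ATP8 and MT-ATP6 transcript were divided was not tested.

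**Figure D2:**
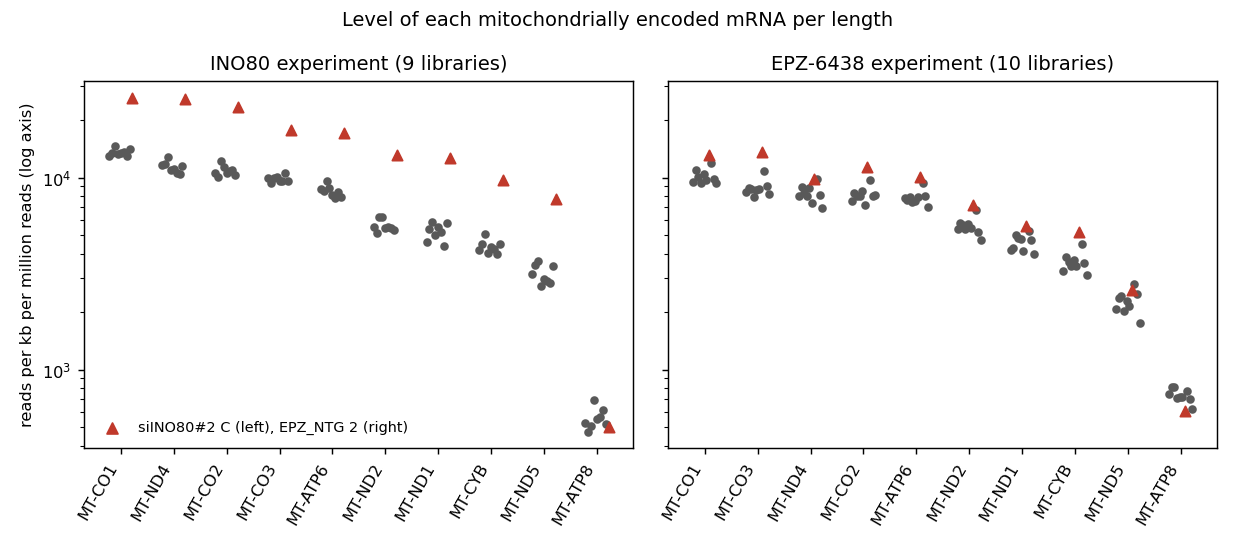
Level of each of the 10 mRNAs in RPKM (log axis), for the libraries of the INO80 experiment and of the drug experiment; each point is 1 library, the triangles are siINO80#2 replicate C and library 2 of EPZ-6438 with NTG, and the genes (x axis) run from the highest to the lowest median of each experiment. MT-CO1 had the highest medians (13388 and 9980) and MT-ATP8 the lowest (524 and 721).

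In the siINO80#2 replicate C library, the counts assigned to 9 of the 10 genes were higher together and those assigned to MT-ATP8 were not. Relative to the mean of siINO80#2 replicates A and B, the normalized counts of replicate C were 2.64-fold for MT-ND5, 2.57-fold for MT-ND1, 2.51-fold for MT-ND2, 2.47-fold for MT-ND4, 2.33-fold for MT-CYB, 2.27-fold for MT-CO2, 2.18-fold for MT-ATP6, 2.08-fold for MT-CO1 and 2.01-fold for MT-CO3. For MT-ATP8 the ratio was 1.05. MT-ATP8 and MT-ATP6 lie on a joint transcript, so their ratios do not describe separate mRNAs. How its reads were divided between these genes was not tested. Among the 10, the mRNAs of complex I stood at higher ratios than those of complex IV. The complex I mRNAs MT-ND4L, MT-ND6 and MT-ND3, which are not among the 10, were at 3.32-fold, 2.20-fold and 2.02-fold, and the last of these lay below MT-CO1 and MT-CO2. The summed share of the nuclear copies was 0.515% of reads in this library against 0.142% to 0.166% in the other 8. MTATP6P1 held 77.9% of the mean normalized counts of such copies over all libraries of this experiment, replicate C included. It was at 92437 normalized counts in replicate C against 20747 to 25360 in the others, and MTND2P28 was at 19055 against 5195 to 6354. MTCO1P12 was at 1.76-fold. Among 14013 nuclear genes, 228 were over 2-fold higher and 253 over 2-fold lower in this library than in the mean of its group, against 68 to 186 and 118 to 245 in the other libraries of the experiment. The median nuclear gene was at -0.03 on the log2 scale.

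In library 2 of EPZ-6438 with NTG the counts assigned to the same gene, MT-ATP8, stood out from the rest. The limit of the joint transcript with MT-ATP6 holds here too. The other 9 mRNAs were 1.14- to 1.49-fold the mean of libraries 1 and 3 of that group, and MT-ATP8 was at 0.871-fold. The nuclear copies took 0.197% of reads in this library and 0.115% to 0.149% in the other 9. Over the 9 libraries of the INO80 experiment the log2 levels of MT-ATP8 had a median Pearson's r of -0.025 with the other 9 mRNAs, whereas pairs without MT-ATP8 had r of 0.931 to 0.996. Over the 10 of the drug experiment the median was -0.028, and the other pairs had 0.623 to 0.965. The libraries share depth and scaling within each pair of values, and these correlations rest on the libraries named. Without siINO80#2 replicate C the pairs without MT-ATP8 had r of 0.034 to 0.944, and the median r of MT-ATP8 became -0.403. Without library 2 of EPZ-6438 with NTG the median r of MT-ATP8 became 0.654, so the 2 experiments went opposite ways.

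The siINO80 comparisons ask whether the mitochondrial mRNAs changed when INO80 was depleted. Among the complex I subunits MT-ND1, part of the membrane arm next to the site where ubiquinone is reduced, was at 83988, 90915 and 78866 normalized counts in NTG A, B and C. It was at 104856, 103498 and 112250 with siINO80#1 and at 111821, 96653 and 267372 with siINO80#2. Every library with either siRNA was above every NTG library. MT-ND2, a proton-pumping subunit of the membrane arm, was at 110468, 123688 and 107865 in NTG, at 109817, 111878 and 112281 with siINO80#1 and at 130433, 111760 and 303460 with siINO80#2. MT-ND4, also a proton-pumping subunit, was at 305216, 287786 and 271133 in NTG, at 330502, 297355 and 320942 with siINO80#1 and at 351382, 283813 and 785362 with siINO80#2. Both genes overlapped NTG with either siRNA. MT-ND5, the pump at the far end of the membrane arm, was at 109276, 93629 and 95983 in NTG, at 129794, 105054 and 127613 with siINO80#1 and at 133076, 101511 and 309079 with siINO80#2, again with overlap.

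MT-CYB, which encodes cytochrome b of complex III, was at 91579, 87335 and 86139 normalized counts in NTG, at 104333, 97027 and 104124 with siINO80#1 and at 116129, 93664 and 244507 with siINO80#2, so that all siINO80 libraries were above all NTG libraries. MT-CO1 of complex IV was at 383962, 389526 and 376598 in NTG, at 420616, 403885 and 443694 with siINO80#1 and at 448132, 408314 and 888750 with siINO80#2, and it was the only complex IV mRNA with this separation. MT-CO2, which holds the copper center that receives electrons from cytochrome c, was at 137580, 146858 and 141232 in NTG, at 139685, 141830 and 143417 with siINO80#1 and at 166051, 144331 and 351996 with siINO80#2. MT-CO3, a core subunit without a redox center, was at 149588, 149746 and 155658 in NTG, at 149459, 146857 and 153606 with siINO80#1 and at 156599, 146922 and 305379 with siINO80#2. For MT-CO2 and MT-CO3 the siINO80#1 libraries lay at about the level of NTG. MT-ATP6, the subunit of the proton channel of the ATP synthase, was at 113604, 113816 and 107433 in NTG, at 118897, 107650 and 110098 with siINO80#1 and at 131378, 103466 and 256032 with siINO80#2. MT-ATP8 was at 2074, 2728 and 2386 in NTG, at 2001, 2245 and 2187 with siINO80#1 and at 2105, 2265 and 2292 with siINO80#2, and was the only one of the 10 that was not highest in siINO80#2 replicate C.

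**Figure D3:**
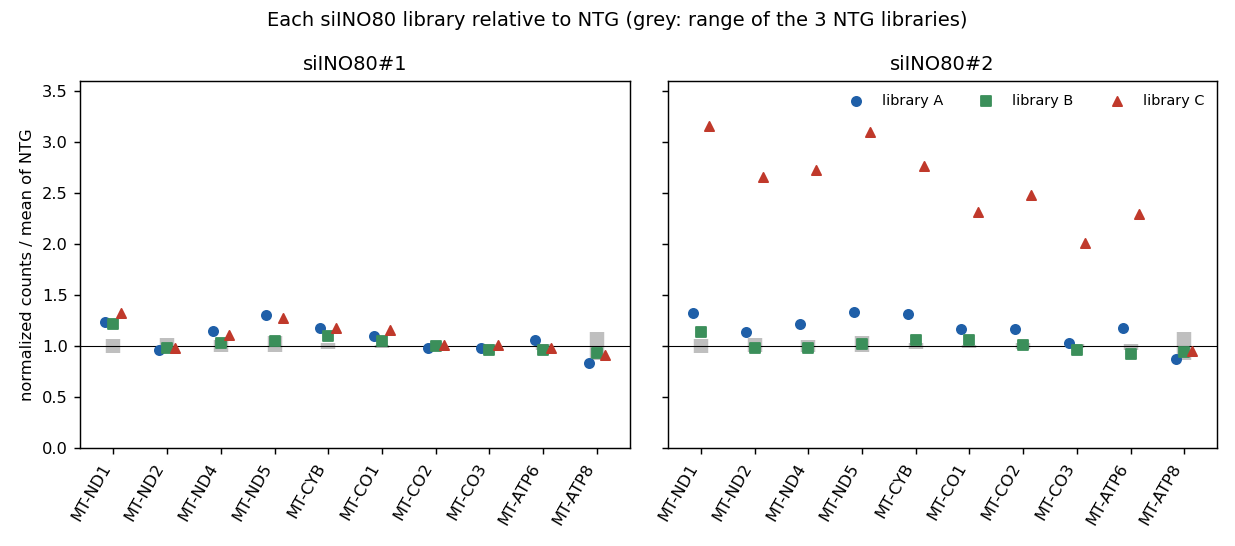
Normalized counts of each mRNA in each siINO80#1 and siINO80#2 library divided by the mean of the 3 NTG libraries (y axis, a linear ratio), by gene (x axis); each point is 1 library and the grey bars span the NTG libraries. For 9 mRNAs the siINO80#2 replicate C library lies well above all others, and for MT-ATP8 it lies among them.

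No member passed the threshold of an adjusted p under 0.05 with siINO80#1 against NTG (limma, 14034 genes), where 41.6% of all genes tested passed it. The log2 fold changes ran from -0.15 for MT-ATP8 to 0.34 for MT-ND1, with adjusted p of 0.236 to 0.997 and 0 of 10 at an unadjusted p under 0.05. edgeR and DESeq2 on the recovered reads also called 0 of 10. The shared spread in this fit includes siINO80#2 replicate C. Without that library MT-ND1 passed at a log2 fold change of 0.34 (SE 0.097, adjusted p = 0.0151), and 49.5% of all genes passed. MT-ND1 also passed in limma when only the siINO80#1 and NTG libraries were in the fit (adjusted p = 0.0121). MT-ND1, MT-CYB and MT-CO1 had all siINO80#1 libraries above all NTG libraries, which 27.8% of all genes did.

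With siINO80#2 against NTG limma again called 0 of 10, against 55.0% of all genes. The log2 fold changes ran from -0.10 for MT-ATP8 to 0.75 for MT-ND1, the adjusted p from 0.0559 to 0.398, and MT-ND1 and MT-CYB had an unadjusted p under 0.05. edgeR called MT-ND1 (adjusted p = 0.0261), MT-ND5 (0.0413) and MT-CYB (0.0334), and DESeq2 called MT-ND1 (0.0488). These fold changes rested on 1 library. Without siINO80#2 replicate C the range was -0.13 to 0.30, and MT-ND1 alone passed in limma at a log2 fold change of 0.30 (SE 0.11, adjusted p = 0.0392), with 53.9% of all genes past the threshold. Leaving out replicate A gave 1 call, and leaving out replicate B, so that only A and C remained, gave 7. Over the alternative fits, edgeR and DESeq2 included, 6841 to 8127 of all genes passed. MT-ND1, MT-CYB and MT-CO1 had all siINO80#2 libraries above all NTG libraries, as 30.0% of all genes did. Both siRNAs were compared with the same 3 NTG libraries, so the separation of the same genes with both is not independent.

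As a percent of reads rather than normalized counts, MT-ND1, MT-CYB and MT-CO1 were still higher in all libraries of either siRNA than in all NTG libraries, as were 22.2% of all genes with siINO80#1 and 23.3% with siINO80#2. MT-ND1 took 0.419% to 0.479% of reads in NTG, 0.515% to 0.553% with siINO80#1 and 0.498% to 1.21% with siINO80#2. MT-ND2 took 0.539% to 0.572% with siINO80#1 against 0.573% to 0.652% in NTG, and MT-CO3 took 0.733% to 0.756% against 0.782% to 0.826%, so both were lower in all siINO80#1 libraries on this scale, as were 35.6% of all genes. Neither separation stood on the scale of normalized counts. Within the reads of the 10 mRNAs, MT-ND1 held 5.54% to 6.12% in NTG, 6.51% to 6.89% with siINO80#1 and 6.40% to 7.20% with siINO80#2. The 2 siRNAs gave 0 of 10 calls when compared with each other (22.1% of all genes; log2 fold changes 0.05 to 0.56, adjusted p 0.202 to 0.752, 0 at an unadjusted p under 0.05, and 0 with edgeR or DESeq2). MT-CO2 was higher in all siINO80#2 than in all siINO80#1 libraries, as were 18.5% of all genes. Without siINO80#2 replicate C the largest difference between the siRNAs was 0.13 on the log2 scale.

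The siMCRS1 comparison in DMSO had 1 call among the 10. MT-ND1 was at 133635 and 131536 normalized counts in DMSO with NTG and at 185312, 185775 and 171034 in DMSO with siMCRS1. All siMCRS1 libraries were above both NTG libraries, and the log2 fold change was 0.45 (SE 0.16, limma adjusted p = 0.0415), where 47.7% of all 14312 genes tested passed. The call did not hold when any of the 5 libraries compared was left out (adjusted p 0.0515 to 0.144), nor without library 3 of EPZ-6438 with NTG or either library of EPZ-6438 with siMCRS1 (0.0530 to 0.0536). MT-ND2 was at 188837 and 193657 against 225101, 226990 and 222938, and MT-ND4 was at 369412 and 395238 against 440638, 443837 and 455090. MT-ND5 was at 125598 and 137592 against 167207, 146891 and 153815. These complex I mRNAs did not overlap between the groups but did not pass the test.

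MT-CYB was at 124971 and 140827 normalized counts in DMSO with NTG and at 159893, 158413 and 158551 with siMCRS1. MT-CO1 was at 488377 and 539716 against 595798, 579368 and 601128, and MT-CO2 was at 173692 and 182181 against 209397, 221181 and 218023. In complex IV, MT-CO3 was likewise separated, at 219810 and 221892 against 263069, 249170 and 253017. MT-ATP6 was at 179106 and 166705 against 206881, 204885 and 192961, and MT-ATP8 was at 5189 and 5378 against 6407, 5940 and 5559. All 10 mRNAs were thus higher in all siMCRS1 libraries on this scale, which 33.3% of all genes were, and the log2 fold changes were 0.17 to 0.45.

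The separation in DMSO depended on how libraries were scaled. As a percent of reads MT-ND1 alone was higher in all siMCRS1 libraries, at 0.459% to 0.483% against 0.399% to 0.410%, and the other 9 overlapped, where 20.8% of all genes were higher in all siMCRS1 libraries. Rescaling libraries to equal totals moved the median of all genes by -0.23 on the log2 scale and the median of the 10 mRNAs from 0.23 to -0.01, turned the sign of 6 of them (MT-ND2, MT-ND4, MT-CO1, MT-CO3, MT-ATP6 and MT-ATP8) and left 0 calls. Rescaling multiplies every gene of a library by the same factor. The place of the 10 mRNAs relative to the median of all genes thus could not differ much between the scales, and it is no result about them. COL1A1, a fibroblast marker, was at 223 and 270 normalized counts in DMSO with NTG and at 750, 348 and 772 with siMCRS1. The 7 markers of other cells summed to 430 to 508 and 626 to 987, and COL1A1 made up most of the siMCRS1 sums. In EPZ-6438 the sums were 234 to 406 with NTG and 762 to 921 with siMCRS1. In the INO80 experiment they were 357 to 367 with NTG, 446 to 488 with siINO80#1 and 366 to 458 with siINO80#2. The part of these differences in the levels of the mitochondrial mRNAs was not tested.

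In EPZ-6438 the siMCRS1 libraries overlapped the NTG libraries for all 10 mRNAs in normalized counts. As a percent of reads MT-ND2 was lower in both siMCRS1 libraries, at 0.494% and 0.544%, than in the 3 NTG libraries, as were 46.2% of all genes, and the other 9 overlapped. MT-ND1 was at 125068, 179967 and 158482 normalized counts in EPZ-6438 with NTG and at 170073 and 147394 with siMCRS1. MT-CO1 was at 474964, 680401 and 573831 against 571742 and 553453. MT-ATP8 was at 4723, 4232 and 4998 against 5450 and 4964. In library 2 of EPZ-6438 with NTG the first 2 genes were at their highest level in the group and MT-ATP8 at its lowest. limma called 0 of 10 (53.7% of all genes), with log2 fold changes of -0.14 to 0.16, adjusted p of 0.203 to 0.966 and 0 at an unadjusted p under 0.05, and edgeR and DESeq2 called 0. Without library 2 of EPZ-6438 with NTG the fold changes were -0.01 to 0.22 and limma again called 0, against 50.1% of all genes. With libraries rescaled to equal totals MT-ND2 was lower by 0.37 on the log2 scale (adjusted p = 0.0432), with the median of all genes moved by -0.23. Over the alternative fits, equal totals included, 5070 to 7816 of all genes passed in either direction.

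For the remaining mRNAs in EPZ-6438, MT-ND2 was at 179384, 253422 and 220154 with NTG and at 204010 and 189774 with siMCRS1. MT-ND4 was at 319415, 455660 and 423325 against 418873 and 367030, and MT-ND5 was at 122023, 159368 and 158876 against 168456 and 121438. MT-CYB was at 124362, 200012 and 161558 against 152980 and 135755. All 4 were highest in library 2 of EPZ-6438 with NTG except MT-ND5, which was highest with siMCRS1. MT-CO2 was at 155050, 262858 and 207684 against 206611 and 212858, and MT-CO3 was at 217476, 360222 and 265890 against 266762 and 249015. MT-ATP6 was at 171182, 230959 and 199278 against 204914 and 183675. The spread among the NTG libraries was larger than the distance between the groups for these genes.

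EPZ-6438 against DMSO asks whether the mRNAs changed when the methylation of lysine 27 was inhibited. In NTG cells limma called 0 of 10 (0.384% of all genes), with log2 fold changes of -0.19 for MT-ATP8 to 0.32 for MT-CO3 and 0 at an unadjusted p under 0.05. MT-ATP8 was lower in all EPZ-6438 libraries, as were 17.1% of all genes. As a percent of reads MT-ATP8 overlapped (0.0126% to 0.0160% against 0.0155% to 0.0167% in DMSO), and MT-ATP6 alone was separated, higher in EPZ-6438, as were 18.6% of all genes. In siMCRS1 cells limma called 0 of 10 (0.0908% of all genes), with log2 fold changes of -0.20 to 0.02 and 0 at an unadjusted p under 0.05. There MT-ND1, MT-ND2, MT-ND4, MT-CYB, MT-CO1 and MT-ATP8 were lower in both EPZ-6438 libraries than in all DMSO libraries, which 13.3% of all genes were. As a percent of reads MT-ND1, MT-ND2 and MT-ATP8 were lower in both, as were 10.5% of all genes, and the other 7 overlapped. The test of the difference between the siMCRS1 effects in EPZ-6438 and in DMSO called 0 of 10 members and 0.00% of all genes. It gave log2 differences of -0.40 to -0.01, with an adjusted p of 1.00 for each mRNA and 0 at an unadjusted p under 0.05. edgeR and DESeq2 called 0 of 10 in all of these comparisons. The siMCRS1 and EPZ-6438 comparisons share control libraries with each other.

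**Figure D4:**
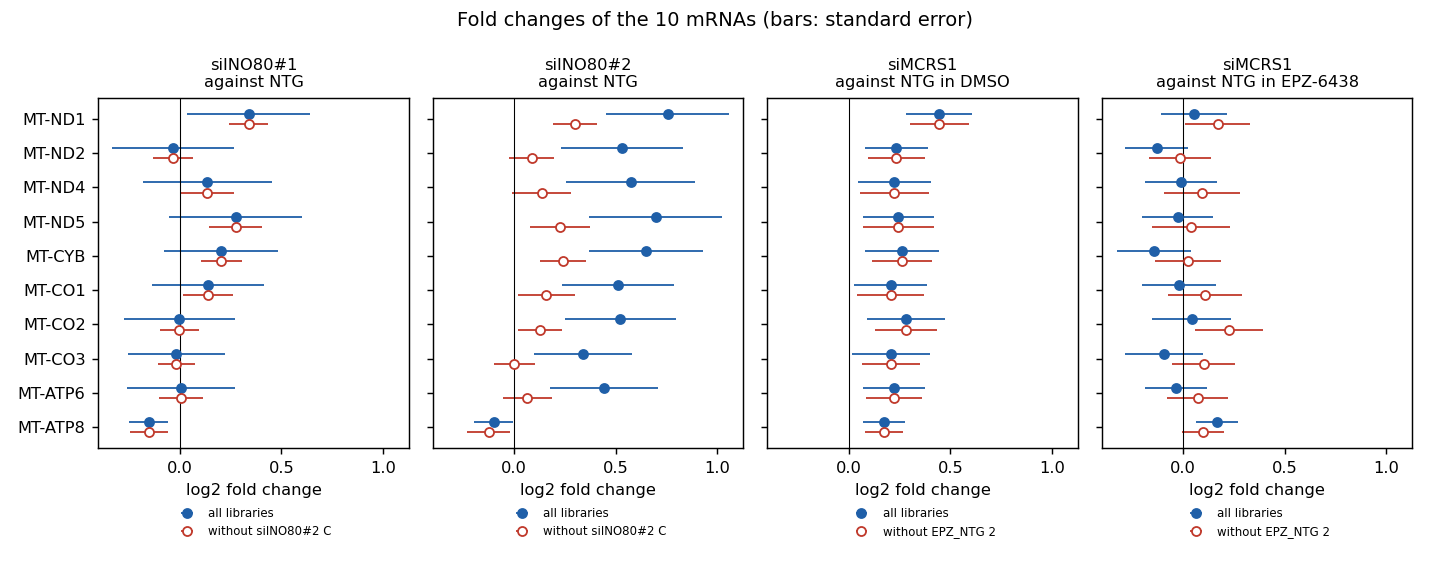
Log2 fold change of each mRNA with its standard error as the bar (x axis) in the siINO80 and siMCRS1 comparisons with NTG, from limma on log2 of the normalized count plus 1, with all libraries (filled points) and without the library that stood apart (open points). Without siINO80#2 replicate C the siINO80#2 values lie between -0.13 and 0.30, and the median standard error is 0.11 in place of 0.28.

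The mRNAs of many nuclear subunits of the same complexes were lower with both INO80 siRNAs. Of 72 nuclear subunits tested, 32 fell and 1 rose with siINO80#1, and 51 fell and 1 rose with siINO80#2, where 20.8% and 28.4% of all genes fell. The median log2 fold changes were -0.35 and -0.50, against 0.07 and 0.52 for the 10 mtDNA-encoded mRNAs and 0.00 for all genes tested. Without siINO80#2 replicate C, 51 fell and 2 rose with siINO80#1 and 47 fell and 3 rose with siINO80#2, and with siINO80#2 the median was then -0.36 for the nuclear subunits and 0.13 for the 10 mRNAs. The median of the 10 mRNAs was 0.79 without siINO80#2 replicate B. By complex, 15 of 37 complex I subunits fell with siINO80#1 and 26 with siINO80#2, 5 and 7 of 9 in complex III, 2 and 6 of 11 in complex IV, and 10 and 12 of 15 in the ATP synthase. In the siMCRS1 comparisons 11 rose and 18 fell in DMSO, and 12 rose and 16 fell in EPZ-6438, with a median of 0.02 in each, where 24.6% and 26.9% of all genes fell. With equal totals these became 0 and 25, and 2 and 31. That rescaling also lowered the median of all genes in both comparisons and raised the count of all genes called lower in DMSO. The move is therefore not particular to the nuclear subunits.

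Of the nuclear subunits 3 were named for the size of their changes, and they fell with both INO80 siRNAs and with siMCRS1. NDUFA7 of complex I was at 405, 374 and 395 normalized counts in NTG, at 208, 195 and 214 with siINO80#1 and at 116, 156 and 155 with siINO80#2, a log2 fold change of -0.92 (SE 0.13) and -1.47 (SE 0.13). UQCRQ of complex III changed by -0.85 (SE 0.18) and -1.56 (SE 0.18) on the log2 scale, and ATP5G1, which encodes the ring subunit of the ATP synthase, by -0.95 (SE 0.11) and -1.40 (SE 0.11). With siMCRS1 the values, in DMSO first and EPZ-6438 second, were -0.93 and -1.11 for NDUFA7, -0.56 and -0.39 for UQCRQ and -0.70 and -0.86 for ATP5G1, all past the threshold. For each of these genes all siINO80 libraries were below all NTG libraries.

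**Figure D5:**
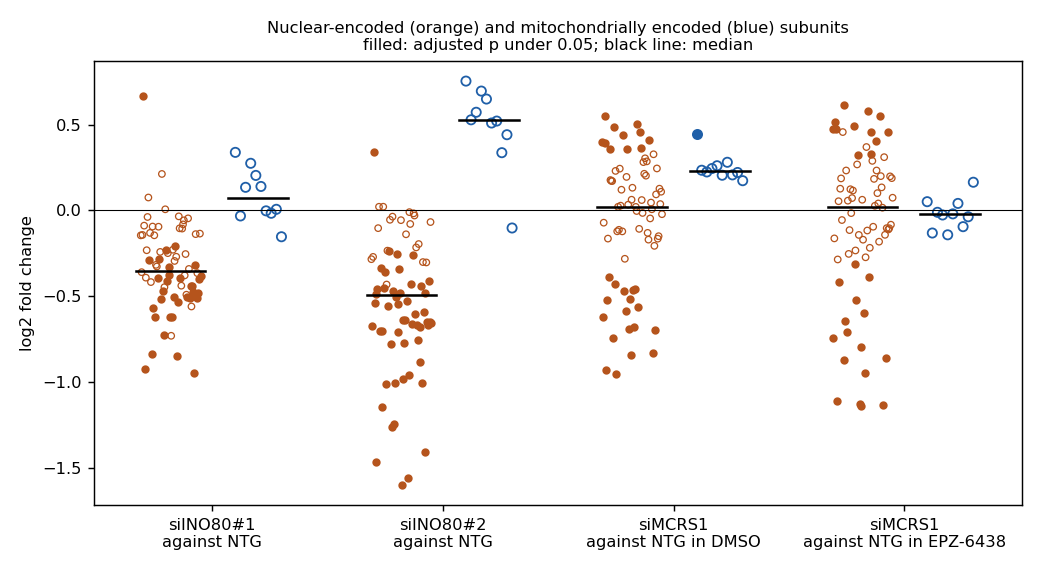
Log2 fold changes of the nuclear and the mtDNA-encoded subunits of complexes I, III and IV and of the ATP synthase (y axis; each point is 1 gene, filled where the adjusted p was under 0.05, and each line a median) in the siINO80 and siMCRS1 comparisons with NTG (x axis). With siINO80#2 the nuclear subunits have a median of -0.50 and the 10 mtDNA-encoded mRNAs a median of 0.52, which is 0.13 without siINO80#2 replicate C.

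TFAM, which packages mtDNA and starts its transcription, differed between the INO80 siRNAs. It was at 1672, 1644 and 1482 normalized counts in NTG, at 818, 738 and 630 with siINO80#1 and at 1544, 1519 and 1180 with siINO80#2. The siINO80#1 libraries lay below all others, with a log2 fold change of -1.14 (SE 0.12, limma adjusted p = 4.6e-05), whereas siINO80#2 was at -0.19 (SE 0.12, adjusted p = 0.22) and overlapped NTG. The difference between the siRNAs was 0.95 (SE 0.12, adjusted p = 0.00062). The levels of the 10 mRNAs with siINO80#1 stood at -0.15 to 0.34 of NTG on the log2 scale beside this. With siMCRS1 TFAM was at 0.33 (adjusted p = 0.0523) in DMSO and rose by 0.66 in EPZ-6438.

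Of 8 genes of mitochondrial transcription, 1 rose and 2 fell with siINO80#1, 1 rose and 3 fell with siINO80#2, 2 rose and 2 fell with siMCRS1 in DMSO and 3 rose and 2 fell in EPZ-6438. Of all genes, 41.6%, 55.0%, 47.7% and 53.7% passed in either direction in these 4 comparisons, and the counts of this list lay near those shares. The siMCRS1 counts of this and the following lists are those in normalized counts. Rescaling to equal totals moved the calls over all genes in DMSO towards lower, so the number that rose depends on the scale. MTERF3, known to repress mtDNA transcription, rose in all 4 comparisons with log2 fold changes of 0.82, 0.99, 0.68 and 0.87. POLRMT was at 0.05 (adjusted p = 0.747) with siINO80#1 and fell by 0.36 with siINO80#2, and TEFM, the elongation factor, was at -0.17 (adjusted p = 0.47) and fell by 0.52 with siINO80#2. Without siINO80#2 replicate C TEFM was no longer past the threshold (adjusted p = 0.0592). TFB2M rose by 0.50 and 0.70 with siMCRS1 in DMSO and EPZ-6438, and MTERF2 fell by 0.80 and 1.04.

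Of 20 genes of mitochondrial RNA processing and stability, 3 rose and 4 fell with siINO80#1, 7 and 7 with siINO80#2, 6 and 7 with siMCRS1 in DMSO and 9 and 5 in EPZ-6438, beside 41.6%, 55.0%, 47.7% and 53.7% of all genes in either direction. LRPPRC, which with SLIRP stabilizes most mitochondrial mRNAs, was at -0.24 (adjusted p = 0.0929) with siINO80#1 and fell by 0.48 on the log2 scale with siINO80#2. It also passed with siINO80#1 when siINO80#2 replicate C was left out (adjusted p = 0.0222). With siMCRS1 LRPPRC was at 0.02 (adjusted p = 0.904) in DMSO and rose by 0.40 in EPZ-6438. SLIRP was at 0.24 (adjusted p = 0.0633) and 0.16 (adjusted p = 0.174), and it rose by 0.74 and 0.87 with siMCRS1. FASTK, whose mitochondrial form is required for MT-ND6 mRNA, fell by 0.90 and 1.35 with the INO80 siRNAs and by 1.55 and 1.66 with siMCRS1. FASTKD2, of the same family, rose by 0.75, 0.84, 0.87 and 1.10. PNPT1, a subunit of the mitochondrial RNA degradosome, was at 0.07, -0.04, -0.12 and 0.19 and passed in none of these comparisons.

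Of 10 genes of mtDNA maintenance, 4 rose and 1 fell with siINO80#1, and 4 rose and 2 fell with siINO80#2, near the 41.6% and 55.0% of all genes that passed in either direction. TOP1MT, the mitochondrial topoisomerase I, was at 151, 112 and 136 normalized counts in NTG, at 413, 406 and 441 with siINO80#1 and at 505, 483 and 511 with siINO80#2, a log2 fold change of 1.66 (SE 0.11) and 1.91 (SE 0.11). It rose by 1.30 and 1.37 with siMCRS1. MGME1, the exonuclease that trims replication ends, fell by 0.56, 0.80, 0.82 and 0.62 in the 4 comparisons in the same order. TK2, a thymidine kinase of the mitochondrial nucleotide supply, rose by 0.72 and 0.67 with the INO80 siRNAs and by 0.56 with siMCRS1 in EPZ-6438, and was at 0.35 (adjusted p = 0.0991) in DMSO. With siMCRS1 2 of the 10 rose and 2 fell in DMSO, and 3 rose and 2 fell in EPZ-6438, where 47.7% and 53.7% of all genes passed.

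Of 8 regulators of mitochondrial biogenesis, 2 rose and 1 fell with each INO80 siRNA, and 5 rose and 2 fell in each siMCRS1 comparison. Of all genes, 41.6% and 55.0% passed in either direction with the INO80 siRNAs, and 47.7% and 53.7% with siMCRS1. The siMCRS1 counts are again those in normalized counts and depend on that scale. PPARGC1A, a coactivator that drives nuclear genes of the respiratory chain, was at 352, 290 and 389 normalized counts in NTG, at 298, 234 and 215 with siINO80#1 and at 137, 126 and 166 with siINO80#2. It fell by 0.47 and 1.26 on the log2 scale with the INO80 siRNAs and by 0.92 and 0.59 with siMCRS1, of which the last did not pass without library 2 of EPZ-6438 with NTG (adjusted p = 0.127). PPARGC1B, a related coactivator, rose by 0.44, 0.56, 0.63 and 0.68. The siMCRS1 calls of PPARGC1B were also lost without that library (adjusted p = 0.0564 and 0.0781). ESRRA, a nuclear receptor that acts with both, fell by 0.99 and 0.97 with siMCRS1 and was at -0.17 and -0.42 with the INO80 siRNAs. With siINO80#2 ESRRA was at 532, 658 and 335 normalized counts in A, B and C, beside 571, 670 and 736 in NTG.

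Of 12 factors that translate the mitochondrial mRNAs, 7 fell and 0 rose with siINO80#1 and 8 fell and 2 rose with siINO80#2. With siMCRS1 3 fell and 0 rose in DMSO, and 5 fell and 2 rose in EPZ-6438. Of all genes, 20.8% and 28.4% fell with the INO80 siRNAs and 24.6% and 26.9% with siMCRS1, so that the count in DMSO was at the share of all genes. TACO1, an activator of the translation of MT-CO1, fell by 0.85, 1.35, 1.32 and 1.35 on the log2 scale in the 4 comparisons. MRPS27, a protein of the small mitochondrial ribosomal subunit, fell by 0.81, 1.41, 0.84 and 0.75, and MTIF2, the initiation factor that places the first tRNA, fell by 0.78, 0.76, 0.53 and 0.43. Of 10 factors that insert or assemble the encoded proteins, 3, 5, 5 and 4 fell and 0 rose in the 4 comparisons. COA3, an assembly factor that acts on newly made MT-CO1, was at 913, 963 and 966 normalized counts in NTG, at 445, 403 and 429 with siINO80#1 and at 318, 314 and 258 with siINO80#2, and fell by 1.15, 1.68, 1.27 and 1.19. COX15, needed to make the heme of MT-CO1, fell by 0.82, 0.91, 0.92 and 0.90. SURF1, another assembly factor of complex IV, was at 0.09 and 0.10 with the INO80 siRNAs and fell by 1.01 and 1.04 with siMCRS1. With siINO80#2 the SURF1 libraries A, B and C were at 237, 260 and 161 normalized counts, beside 202, 190 and 209 in NTG. The value of 0.10 thus joins opposite directions. MT-CO1 mRNA itself was at 0.14 and 0.51 with the INO80 siRNAs and at 0.21 and -0.02 with siMCRS1, none past the threshold, and the value of 0.51 was 0.16 without siINO80#2 replicate C and 0.72 without replicate B.

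Among 11402 genes outside mtDNA and its copies whose mean reached 50 normalized counts in both tables, the 5 whose log2 levels were most like the mean log2 level of the 10 mRNAs were SRCAP, FAM3C2, SAMD4B, FOXJ2 and GPATCH8. The measure was the smaller of the Pearson's r over 9 libraries of the INO80 experiment and over 10 of the drug experiment, and it was 0.837, 0.826, 0.818, 0.798 and 0.795. All 5 were highest in siINO80#2 replicate C in the first experiment and in library 2 of EPZ-6438 with NTG in the second. SRCAP, the ATPase of another chromatin remodeling complex, was at 4763 normalized counts in siINO80#2 replicate C within a range of 2174 to 4763, and at 4538 in library 2 of EPZ-6438 with NTG within a range of 2153 to 4538. The likeness was given as a description over libraries that share their scaling.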

How the data were processed

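Stranded mRNA libraries of HepG2 cells were made with a Kapa kit, as the labels state. What the authors deposited for each experiment is a table of a signal, whole gene counts scaled by a size factor of each library. Notes from the submitters name kallisto, DESeq2 and GRCh38 without a role; versions, annotation and the use of strand are not given in the sources used here. Dividing by a library's smallest step gave whole numbers (within 0.001) for 100% of values, which were taken as reads and may be rounded estimates. Libraries held 17093574 to 47397233 reads, and intervals cover counting error only.

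Genes averaging 10 normalized counts or more in a table (14034 and 14312) were tested as log2(value + 1), the scale of the fold changes, by limma 3.58.1 (R 4.3.3), with eBayes using a trend and 1 fit per table over all its groups. Genes passed at an adjusted p (Benjamini-Hochberg) below 0.05. edgeR 4.0.16 (quasi-likelihood) and DESeq2 1.42.0 were run on the recovered reads. Other alternatives were pseudocounts, filters, scalings, nuclear copies added to their genes, the replicate letter as a block, each library left out and only the groups compared. Fits without a library that stood apart, combined with edgeR or with rescaling, were chosen after seeing the data. In tests on simulated data with 200 genes changed by a log2 fold change of 1, limma recovered 92% for siINO80#1 against NTG (14034 genes) and 85% for siMCRS1 in DMSO (14312 genes), and 9.80% and 6.08% of its calls there were false. The simulation gave every gene the same small dispersion, changed far fewer genes than passed in the data and held no library that stood apart. It therefore does not give the power for the smaller changes of the 10 mRNAs. Drug libraries were assigned to groups by column name; 8 of 10 carry numbers in place of the labels' letters.

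The members and gene lists were chosen with earlier results of these data known. Named genes beyond the 10 were the siRNA targets, POLRMT, TFAM, TEFM, LRPPRC, SLIRP, PNPT1 and PPARGC1A, and up to 3 per list with the largest changes among those past the threshold in both siINO80 or both siMCRS1 comparisons. Positions are from RefSeq GRCh38.p14. Sequences and shared words are from GENCODE 44 transcripts in the release mapped back to the previous human genome build. Python 3.11.15, numpy 2.4.6, pandas 2.3.3 and scipy 1.17.1 were used beside R, and matplotlib 3.10.9 for plots.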

Additional observations from a re-analysis of the deposited data

Results flagged for a closer look

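PNPT1 is the polynucleotide phosphorylase of the mitochondrial degradosome. In normalized counts it was lower in all siMCRS1 than in all NTG libraries in DMSO, at a log2 fold change of -0.12. On the same scale it was higher in all siMCRS1 than in all NTG libraries in EPZ-6438, at 0.19. As a share of reads the EPZ-6438 groups overlapped, so the opposite separation depended on how libraries were scaled. The effect in DMSO minus that in EPZ-6438 was -0.30 (-0.305), and the test of that difference in limma did not pass (adjusted p = 1.00). Neither effect passed the threshold on its own.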

How the results depend on the processing

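Fold changes of all 10 mRNAs were followed for siINO80#1, siINO80#2 and siMCRS1 in DMSO, each against NTG. For siMCRS1 in EPZ-6438 only MT-ND1, MT-ND2, MT-CYB and MT-CO3 were followed, and the other comparisons were left out of this count. Of these 816 recomputed values, 728 kept their direction and their side of the threshold. A further 24 newly passed it, 13 no longer passed and 51 changed sign. The causes were not tested. With siINO80#1, equal totals put MT-ATP6 at -0.074, and equal totals outside mtDNA at -0.071, with or without siINO80#2 replicate C. Quantile normalization, which sets the most abundant genes equal across libraries, gave -0.40 for MT-ND4, -0.29 for MT-CO1 and -0.14 for MT-ATP6. Calls with siINO80#1 were 1 with only the groups compared, and 1 without siINO80#2 replicate C in edgeR or with equal totals outside mtDNA. With siINO80#2, quantile normalization gave -0.11 for both MT-ND4 and MT-CO3. Calls were 3 in edgeR, 1 in DESeq2 and 2 in edgeR without replicate C, and MT-CO3 was at -0.045 without it with equal totals outside mtDNA.

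With siMCRS1 in DMSO the call of MT-ND1 became 0 calls without a filter (adjusted p = 0.107), with equal totals, with equal totals outside mtDNA (also without library 2 of EPZ-6438 with NTG) and with quantile normalization. Equal totals gave -0.00064 for MT-ND2, -0.011 for MT-ND4, -0.030 for MT-CO1, -0.028 for MT-CO3, -0.014 for MT-ATP6 and -0.062 for MT-ATP8. Equal totals outside mtDNA gave -0.00016, -0.010, -0.029, -0.027, -0.013 and -0.061 for these genes in the same order, with or without that library. Quantile normalization gave -0.11 for MT-ND2, -0.16 for MT-ND4, -0.16 for MT-ND5, -0.12 for MT-CYB, -0.055 for MT-CO1, -0.072 for MT-CO2, -0.14 for MT-CO3, -0.14 for MT-ATP6 and -0.071 for MT-ATP8. With siMCRS1 in EPZ-6438 equal totals, in all reads or outside mtDNA, gave 1 call (MT-ND2, lower) and MT-ND1 at -0.19 and -0.21. Quantile normalization gave 3 calls (MT-ND2, MT-CYB and MT-CO3, lower), MT-ND1 at -0.15 and LRPPRC at -0.055. Over all alternatives of this comparison 5070 to 7816 of all genes passed in either direction. Without library 2 of EPZ-6438 with NTG, MT-CO3 was at 0.076 in edgeR and MT-ND1 at -0.12 with equal totals outside mtDNA. Equal totals also moved the calls over all genes with siMCRS1 in DMSO from 3307 higher and 3523 lower to 1892 and 5107.

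Leaving out each library in turn gave 0 to 1 calls with siINO80#1, 0 to 7 with siINO80#2 and 0 to 1 with siMCRS1 in DMSO. In the same order, 4719 to 6920, 6841 to 7721 and 4604 to 7030 of all genes passed in these fits. With siINO80#1 the values ran from -0.070 to 0.028 for MT-ND2, -0.024 to 0.023 for MT-CO2, -0.034 to 0.0027 for MT-CO3 and -0.035 to 0.036 for MT-ATP6. With siMCRS1 in EPZ-6438 they ran from -0.093 to 0.17 for MT-ND1, -0.32 to 0.024 for MT-CYB and -0.26 to 0.10 for MT-CO3, in each case from leaving out library 1 to leaving out library 2 of EPZ-6438 with NTG.

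Counts over all genes differed by more than 1.5 times for EPZ-6438 against DMSO, from 2 to 721 around 55 in NTG and from 0 to 150 around 13 in siMCRS1, for the interaction (0 to 5 around 0, 5 in DESeq2), for siINO80#2 against siINO80#1 (1948 to 3590 around 3096) and for siMCRS1 in EPZ-6438 (5070 to 7816 around 7686) and siMCRS1 in DMSO (4604 to 7072 around 6830).

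In the INO80 experiment same-lettered libraries had correlations of deviations of -0.077 to 0.263 (mean 0.103, 9 pairs, 5 over 0.1) against a mean of -0.052 for 18 other pairs, and 8 of 9 libraries correlated best with their own letter, a hint from the data and not from the design. The letters were not taken to pair the samples, since only 5 of the 9 pairs passed 0.1 and the labels name no shared batch or day. The replicate block left the 10 mRNAs at 0 calls in each of the 3 siINO80 comparisons and moved no count over all genes by more than 1.5 times (8127 against 7725 with siINO80#2). TFAM with siINO80#2 then passed (adjusted p = 0.0438). For the drug experiment no block was run, because 8 of its 10 columns carry numbers where the labels carry letters and were assigned to groups only.

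With all reads outside mtDNA as the denominator the group means of the summed share rose to 8.41% in NTG, 8.62% with siINO80#1, 12.9% with siINO80#2 (9.01% without replicate C), 6.75% in DMSO with NTG, 6.78% in DMSO with siMCRS1, 7.91% in EPZ-6438 with NTG and 6.38% in EPZ-6438 with siMCRS1. The groups of 2 and 3 libraries, and the spread that siINO80#2 replicate C and library 2 of EPZ-6438 with NTG add to each fit, limit the differences these comparisons can resolve.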
